A study of Mus musculus with 9 samples.

Results

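The 9 genes described here belong to the complement system of innate immunity: C1qa, C1qb, C1qc, C3, C4b, C3ar1, C5ar1, Cfb and Serping1. They were chosen by name, as genes of complement components, receptors and a regulator, out of 55414 rows of the gene count table. RNA was sequenced from retinas of Balb/c mice, an albino strain whose retina is sensitive to bright light, in 3 groups of 3 libraries. The groups were controls, mice of the light damage model, and mice of the same model that also received A74. The labels do not say what A74 is. They give no dose, vehicle, light exposure, time after light, or age of the animals for any group. Nothing states that the 3 libraries of a group came from separate animals. The p-values therefore measure the spread between these libraries, and how much of it is technical is not known. Y-linked transcripts, described below, differed between libraries within the control and light damage groups. The title of the series concerns inhibition of P2RX7, a receptor for extracellular ATP. Libraries held 14787972 to 18740434 read counts, and levels are in CPM, the count of a gene relative to the scaled total of its library, with TMM as the correction for library composition. An adjusted p comes from edgeR's quasi-likelihood test and is corrected by Benjamini-Hochberg across the 17272 genes that passed a filter on low counts, and a gene is called where it lies under 0.05. Of the 9 genes, 7 passed that filter, and C5ar1 and Cfb did not.

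Complement is a cascade of blood and tissue proteins that marks cells and debris for removal. In the classical route, C1q, built from the chains encoded by C1qa, C1qb and C1qc, binds a surface and activates the proteases C1r and C1s, which cut C4 and C2, and the resulting enzyme cuts C3. Factor B, encoded by Cfb, forms the enzyme of the alternative route, which amplifies the cutting of C3. The fragments C3a and C5a act through the receptors encoded by C3ar1 and C5ar1, and the C1 inhibitor, encoded by Serping1, blocks C1r and C1s. In the retina C1q is made chiefly by microglia, while C3 and C4 can be made by glia, microglia and pigment epithelium.

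Promoter sequences were looked up to show what lies before the start sites of genes that moved together. The RefSeq promoter table (GRCm38.p6) held 5 of the 9 genes, namely C1qb, C1qc, C3, C3ar1 and C5ar1. C1qb and C1qc, neighbours on chromosome 4, are shown with C3ar1, which had the largest fold change among the 7 tested. They were picked with their values known. The sequences are the 250 bases before the RefSeq start site on the minus strand, with motif matches in capitals: C1qb at chr4:136886201-136886450, C1qc at chr4:136892915-136893164 and C3ar1 at chr6:122856158-122856407.
C1qb: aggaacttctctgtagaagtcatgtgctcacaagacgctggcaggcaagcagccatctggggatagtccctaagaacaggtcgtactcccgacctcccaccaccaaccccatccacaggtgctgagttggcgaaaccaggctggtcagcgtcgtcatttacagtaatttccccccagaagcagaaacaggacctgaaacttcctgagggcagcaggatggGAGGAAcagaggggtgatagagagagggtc
C1qc: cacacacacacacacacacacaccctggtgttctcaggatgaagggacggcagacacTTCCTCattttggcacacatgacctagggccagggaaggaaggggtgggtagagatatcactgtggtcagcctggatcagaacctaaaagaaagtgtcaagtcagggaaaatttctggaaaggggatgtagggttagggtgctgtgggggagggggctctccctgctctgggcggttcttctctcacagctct
C3ar1: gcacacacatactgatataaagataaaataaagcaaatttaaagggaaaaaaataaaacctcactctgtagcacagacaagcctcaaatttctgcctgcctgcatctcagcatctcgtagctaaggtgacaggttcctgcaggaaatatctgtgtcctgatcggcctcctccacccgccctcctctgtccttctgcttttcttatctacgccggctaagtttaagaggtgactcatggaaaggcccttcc
The motifs searched on both strands, from 250 bases before to 50 bases after the start, were the core of the interferon-stimulated response element (GAAA, any 2 bases, GAAA), TTCNNNGAA, the STAT site, and GAGGAA, a core of the myeloid factor PU.1. C1qb held GAGGAA from position -30 relative to the start site, and C1qc held its reverse complement from position -193. The other 3 promoters held no match to any of the 3 motifs, which says only that these letters are not in the window. Of 32851 RefSeq promoters of the same length, 28.3% held GAGGAA, 8.3% held TTCNNNGAA and 3.44% the response element core, so the PU.1 letters are common and a match is a description only.

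The libraries of a group were not alike in the tissue they held. The summed level of 8 genes of anterior eye tissue, a list written by an earlier analysis that had seen these data, was 138 to 275 CPM in 5 libraries (replicates 1 and 2 of the control group, the same replicates after light damage, and the first A74 library) and 12.5 to 15.9 CPM in the other 4. Y-linked transcripts, with 4249 to 5832 counts where present, were found in the first 4 of those libraries and had 0 counts in the other 5, so both splits coincide outside the A74 group and cannot be told apart there. Rod photoreceptor genes, which mark the retina, were abundant: the 10 listed summed to 55583 to 60268 CPM in control, 32102 to 46584 CPM in light damage and 53270 to 56399 CPM with A74. The 7 lens genes listed reached 635 CPM in the first A74 library, against 77.1 CPM or less in each other library.

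Light damage was compared with control to see how the complement genes of the retina respond to the model. All 7 of the genes that could be tested were higher after light damage, and in each of them every light damage library lay above every control library. The largest change was in the C3a receptor gene C3ar1 (47.2-fold) and the smallest in the C4 gene C4b (2.92-fold). Over all genes tested, 13% were called higher and 20.6% were higher without overlap. The median log2 fold change of the 7 genes was 2.95, against 0.01 over all genes.

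Among the chains of C1q, which starts the classical route, C1qa (ENSMUSG00000036887) stood at 5.79, 6.51 and 6.34 CPM in control replicates 1 to 3 and at 45.2, 41.7 and 27.0 CPM in light damage replicates 1 to 3. C1qb (ENSMUSG00000036905) went from 2.47, 2.84 and 3.57 CPM to 30.1, 22.9 and 15.8 CPM. C1qc (ENSMUSG00000036896) went from 2.61, 1.63 and 2.16 CPM to 35.2, 26.4 and 17.2 CPM. The control libraries were close together for all 3 chains, light damage replicate 1 was the highest library and replicate 3 the lowest of the light damage group, still well above control. The log2 fold change was 2.61 for C1qa (SE 0.21, edgeR adjusted p = 3.08e-05), a 6.10-fold rise. For C1qb it was 2.95 (SE 0.27, edgeR adjusted p = 6.76e-05) and for C1qc 3.63 (SE 0.33, edgeR adjusted p = 0.000168), rises of 7.74-fold and 12.4-fold. In bulk tissue, fewer or more cells of a type and less or more RNA per cell cannot be told apart.

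C3 (ENSMUSG00000024164), the component on which all routes converge, was at 3.74, 4.71 and 1.96 CPM in control and at 30.4, 29.4 and 22.3 CPM after light damage, a log2 change of 2.97 (SE 0.42, edgeR adjusted p = 0.00285). C4b (ENSMUSG00000073418), which encodes the mouse C4 that forms the classical C3 convertase with C2, was at 15.5, 19.1 and 9.84 CPM in control and 57.3, 46.2 and 26.7 CPM after light damage, a log2 change of 1.55 (SE 0.34, edgeR adjusted p = 0.0173). Both genes were lowest in replicate 3 of either group. C4b was the only tested one of the 9 whose call in this comparison was lost under any alternative: it had edgeR adjusted p = 0.0605 without control replicate 1, 0.0545 without light damage replicate 2, and 0.0614 in a fit of these groups alone. C4b is also uncertain because 35.2% of the 50-base windows of its longest transcript (GENCODE M21) occur in C4a as well. C4a itself had 26 to 48 counts a library and a log2 change of 0.01 (SE 0.29, edgeR adjusted p = 0.985).

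Cfb (ENSMUSG00000090231), the gene of factor B, had 2, 5 and 5 counts in control and 7, 3 and 6 counts after light damage. These 16 against 12 counts gave a ratio of 1.19 with a 95% exact interval of 0.528 to 2.75, which covers counting error only, so no difference was detectable at this depth. Its level is uncertain, since 81.4% of its 50-base windows are shared with the overlapping gene Gm20547, which was listed at 0 counts in all 9 libraries.

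The receptors for the anaphylatoxin fragments were almost undetected in control retinas. C3ar1 (ENSMUSG00000040552) was at 0.141, 0.543 and 0.135 CPM in control and at 20.7, 12.4 and 8.13 CPM after light damage. The log2 fold change was 5.56 (SE 0.52, 95% interval 4.39 to 6.73, edgeR adjusted p = 0.00012). C5ar1 (ENSMUSG00000049130) had 0 counts in every control library and 15, 15 and 3 counts after light damage. Against the limit that 0 counts allow, taken as 3 counts over the group, the 33 counts of the C5a receptor gene after light damage stood 9.81-fold higher. That value takes the 33 counts as exact, so it is not a lower confidence limit. C5ar1 failed the filter because light damage replicate 3 was low, and a fit without the filter gave edgeR adjusted p = 1.98e-05, while DESeq2 without the filter gave it no adjusted p.

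Serping1 (ENSMUSG00000023224), the gene of the C1 inhibitor, was at 8.41, 9.11 and 3.84 CPM in control and at 43.6, 32.2 and 19.1 CPM after light damage. The log2 fold change was 2.15 (SE 0.43, edgeR adjusted p = 0.0131), a 4.43-fold rise. As in C3 and C4b, replicate 3 was the lowest library of both groups.

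**Figure D1:**
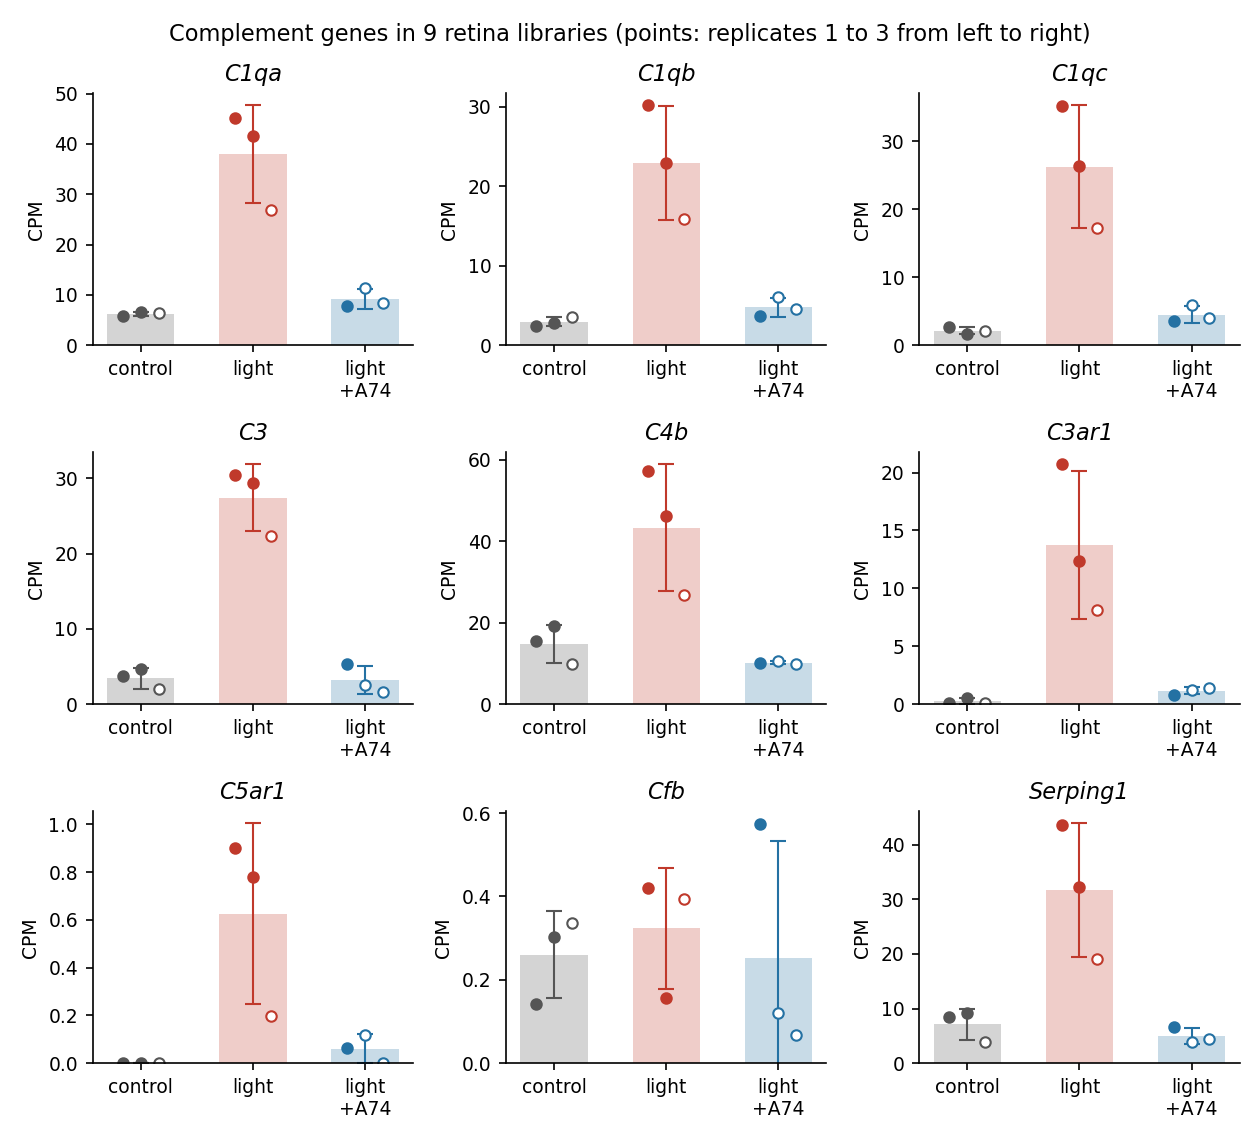
Levels of the 9 genes in CPM (vertical axes, each from 0) by group, where bars are means of 3 libraries, whiskers are SDs and points are replicates 1 to 3 from left to right, filled for libraries with more RNA of anterior eye tissue and open for those with less. Light damage is the highest group for the 7 tested genes, and the lowest light damage library of C1qa, at 27.0 CPM, lies above the highest A74 library, at 11.4 CPM.

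The comparison of A74 with light damage alone asks how the complement response differs when the agent is given. All 7 tested genes were lower with A74, and in each of them every A74 library lay below every light damage library. C3ar1 was 11.8-fold and C3 8.61-fold lower, and C1qa, with 4.15-fold, had the smallest difference. Over all genes, 9.19% were called lower and 17.7% were lower without overlap. The median log2 fold change of the 7 genes was -2.54, against 0.00 over all genes. The light damage libraries are shared with the comparison above, so the comparisons are not independent.

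With A74, C1qa was at 7.72, 11.4 and 8.30 CPM, C1qb at 3.63, 6.04 and 4.58 CPM and C1qc at 3.57, 5.92 and 3.98 CPM in replicates 1 to 3. A74 replicate 2 was the highest of its group for all 3 chains, and it stayed below the lowest light damage library. The log2 fold changes were -2.05 for C1qa (SE 0.20, edgeR adjusted p = 0.000196), -2.27 for C1qb (SE 0.25, edgeR adjusted p = 0.000402) and -2.54 for C1qc (SE 0.30, edgeR adjusted p = 0.00107).

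C3 was at 5.29, 2.57 and 1.66 CPM with A74, a log2 change of -3.11 against light damage (SE 0.42, edgeR adjusted p = 0.00418). C4b was at 10.1, 10.6 and 9.96 CPM, which is a log2 change of -2.09 (SE 0.35, edgeR adjusted p = 0.0095). The A74 libraries were close together for C4b and spread widely for C3, where replicate 1 was the highest. Serping1, at 6.57, 3.89 and 4.38 CPM, had a log2 change of -2.68 (SE 0.45, edgeR adjusted p = 0.0098). Cfb had 9, 2 and 1 counts with A74, and the ratio to light damage was 0.808 with a 95% exact interval of 0.349 to 1.82.

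Both receptors were lower as well. C3ar1 was at 0.829, 1.26 and 1.39 CPM with A74, a log2 change of -3.56 (SE 0.42, edgeR adjusted p = 0.000772). C5ar1 had 1, 2 and 0 counts, and the 3 counts against 33 stand in a ratio of 0.0979, with exact 95% counting limits of 0.0192 and 0.312. Without the filter, edgeR gave C5ar1 an adjusted p of 0.0036 in this comparison. The calls of the 7 tested genes held in all 17 alternatives tried for each, among them leaving out each library in turn and a term for Y-linked transcripts. No A74 library held Y-linked transcripts, so that term was estimated from control and light damage alone and cannot separate such a difference from A74. Some calls held narrowly: over the edgeR and DESeq2 alternatives the highest adjusted p was 0.0492 for Serping1 and 0.0466 for C4b. Their smallest log2 changes were -1.90 and -1.42.

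**Figure D2:**
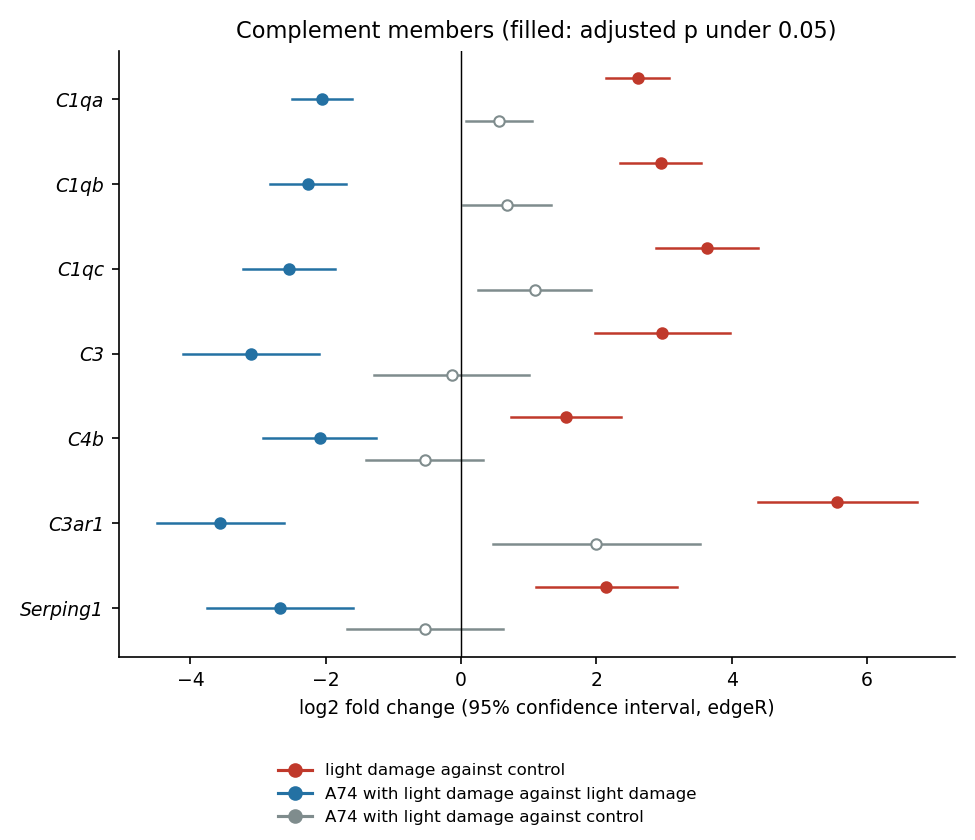
Log2 fold changes of the tested genes (horizontal axis, lines are 95% confidence intervals) in the 3 comparisons, with filled points for adjusted p under 0.05. Light damage against control lies to the right of 0 for every gene, from 1.55 for C4b to 5.56 for C3ar1, and A74 against light damage to the left, from -2.05 for C1qa to -3.56 for C3ar1.

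Light damage with A74 was then compared with control, to see how far the levels lay from those of undamaged retinas. None of the 7 tested genes was called by edgeR, with 0.892% of all genes called in either direction, while 4 of the 7 had an unadjusted p under 0.05, as did 15.9% of all genes, and DESeq2 called 2, with 2.49% of all genes called. Those 4 were the C1q chains and C3ar1, and in each the A74 libraries lay above every control library, as did 11.8% of all genes. The log2 fold change was 0.56 for C1qa (95% interval 0.07 to 1.04, edgeR adjusted p = 0.260), 0.68 for C1qb (0.03 to 1.33, edgeR adjusted p = 0.294) and 1.09 for C1qc (0.26 to 1.92, edgeR adjusted p = 0.211). C3ar1 had 2.00 (0.47 to 3.53, edgeR adjusted p = 0.208). The intervals are not adjusted for the number of genes tested.

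C3, C4b and Serping1 overlapped between A74 and control. Their log2 fold changes were -0.13 (95% interval -1.28 to 1.01, edgeR adjusted p = 0.929), -0.54 (-1.40 to 0.33, edgeR adjusted p = 0.534) and -0.53 (-1.68 to 0.62, edgeR adjusted p = 0.658). These intervals allow a change of more than 2-fold in either direction for C3 and a fall of that size for C4b and Serping1. The calls of this comparison moved with the libraries and the fit. C1qc and C3ar1 were called by DESeq2 (adjusted p = 0.0125 and 0.0138). In edgeR fits without light damage replicate 1, C1qc had adjusted p = 0.0496 and C3ar1 0.0326, and without light damage replicate 3, C1qa had 0.0400, C1qc 0.0271 and C3ar1 0.0475. With no count filter the C1q chains and C3ar1 were all called. C5ar1 had 3 counts with A74 and 0 in control, and Cfb had 12 in each group.

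Microglia make most C1q in the retina, so the summed CPM of the 3 chains was set against the summed CPM of 12 microglia markers in the same library. The ratio was 0.145, 0.140 and 0.182 in control, 0.482, 0.503 and 0.398 after light damage, and 0.213, 0.252 and 0.211 with A74, and no 2 groups overlapped. The log2 difference was 1.57 between light damage and control, a 2.97-fold higher ratio, -1.03 between A74 and light damage, and 0.54 between A74 and control. Each of the 3 exact two-sided permutation tests gave p = 0.1, the smallest value that 3 against 3 libraries allow, so none could reach 0.05. The markers themselves moved: 8 of 11 tested were called higher after light damage and 9 lower with A74, against 13% and 9.19% of all genes. Aif1, among the 11, had 7 to 8 counts a library in control, 29 to 70 after light damage and 8 to 13 with A74. It passed the count filter only through light damage, so its tests are not independent of that filter. The sum of the 12 markers was 66.4 to 78.2 CPM in control, 151 to 229 CPM after light damage and 70.1 to 92.8 CPM with A74.

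With only P2ry12, Tmem119, Cx3cr1 and Csf1r of that list as the denominator, the log2 differences were 1.70, -1.12 and 0.58 in the same order. Single markers differed. After light damage the tested markers ran from a log2 fold change of -0.57 to 3.12, a range that holds C1qa and C1qb but not C1qc. Tyrobp was at 0.973 CPM in control, 8.49 CPM after light damage and 1.51 CPM with A74, and Siglech at 2.38, 1.61 and 1.93 CPM. The direction therefore holds for these sets of markers and not for each marker. The other 4 tested complement genes were set against the same 12 markers. C3 was at 2.94% to 6.01% of the marker sum in control, 13.3% to 16.3% after light damage and 2.07% to 7.55% with A74, so that light damage stood apart and A74 overlapped control. C4b was at 14.8% to 24.4% in control and 17.7% to 25.5% after light damage, which overlap, and at 11.5% to 14.4% with A74. Serping1 was at 5.79% to 11.6% in control, 12.7% to 19.0% after light damage and 4.19% to 9.36% with A74. C3ar1 was at 0.188% to 0.694%, 5.39% to 9.02% and 1.18% to 1.74%, with no overlap between any of the groups and the same order as C1q. Each of these values is a ratio of CPM and not of molecules, since gene length is not taken into account.

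**Figure D3:**
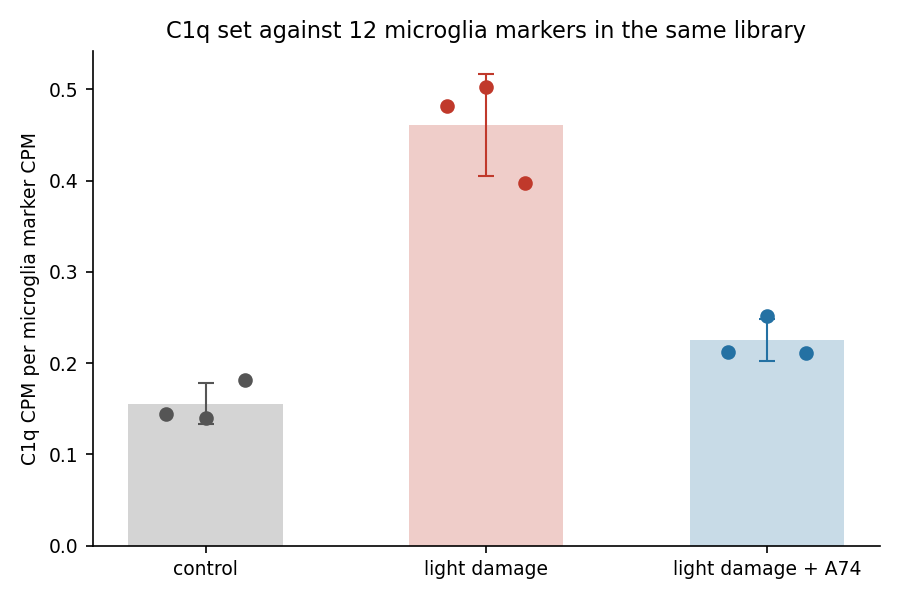
Summed CPM of C1qa, C1qb and C1qc divided by the summed CPM of 12 microglia markers (vertical axis, from 0) for the 3 libraries of each group. The light damage libraries lie between 0.398 and 0.503, above A74 at 0.211 to 0.252 and control at 0.140 to 0.182.

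The share of each chain in the C1q counts was looked at after the counts had been seen. C1qc made up 24.0%, 14.8% and 17.9% of all C1q counts in control, 31.8%, 29.1% and 28.7% after light damage and 23.9%, 25.4% and 23.6% with A74. For the lowest library, control replicate 2, the 95% Clopper-Pearson interval was 10.01% to 20.9%, from 27 of 182 counts, and for the highest, light damage replicate 1, it was 29.7% to 34.0%, from 585 of 1838 counts. For control replicate 1 it was 17.5% to 31.6%, which holds the shares of light damage replicates 2 and 3. These intervals cover counting error only. Light damage lay above both other groups, and control replicate 1 fell within the range of the A74 libraries. The share of C1qa was lowest after light damage, at 43.9% ± 2.62, against 55.03% ± 3.75 in control and 49.9% ± 1.60 with A74 (SD, n = 3). That of C1qb was nearly level, at 26.1% ± 3.45, 26.3% ± 1.05 and 25.8% ± 1.41 in control, light damage and A74.

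Because libraries differed in anterior tissue, the genes were fitted with a term for the set with more and the set with less of that RNA, within groups. Of the 7 tested genes 2 were called higher in libraries with more anterior RNA, while 0.996% of all genes were. These were Serping1, with a log2 difference of 0.95 (SE 0.13, edgeR adjusted p = 0.000294), and C3, with 0.79 (SE 0.16, edgeR adjusted p = 0.0216). C4b had 0.63 (SE 0.18, edgeR adjusted p = 0.238) and C3ar1 0.64 (SE 0.35, edgeR adjusted p = 0.567). The C1q chains had 0.10 to 0.29, with edgeR adjusted p of 0.781 to 0.932. Colec12, a scavenger receptor of the collectin family, was the only gene called among the 26 other complement genes tested, with 1.02 (SE 0.19, edgeR adjusted p = 0.0194). The part of anterior tissue in these differences was not tested further, and in control and light damage it cannot be told apart from the Y-linked split.

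**Figure D4:**
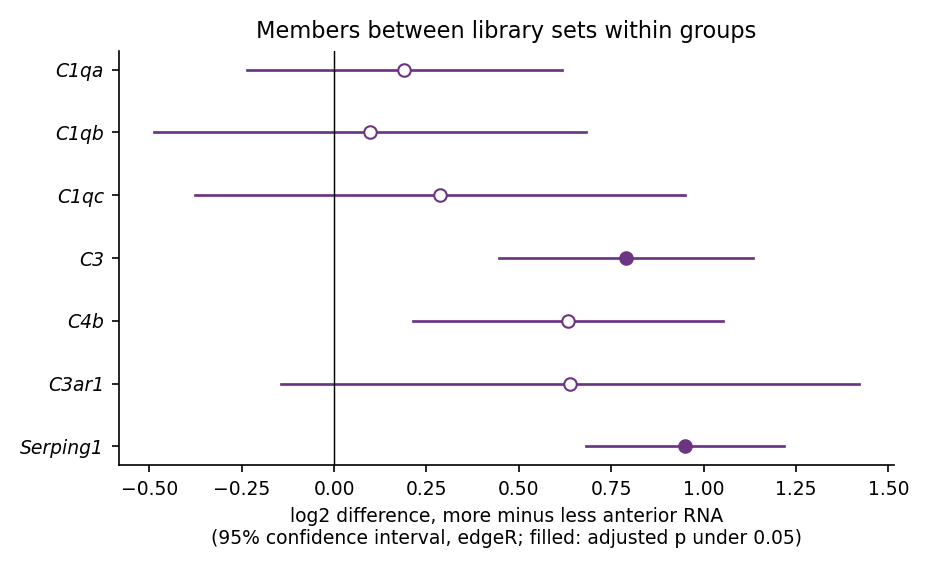
Log2 difference between libraries with more and with less RNA of anterior eye tissue, within groups (horizontal axis, lines are 95% confidence intervals), for complement genes, with filled points for adjusted p under 0.05. Serping1 at 0.95 and C3 at 0.79 lie to the right of 0, and C1qb at 0.10 has an interval from -0.49 to 0.68.

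The changes with light and with A74 were present within both sets. With more anterior RNA, where 2 libraries of each group could be compared, the log2 fold change was 2.81 for C1qa, 3.31 for C1qb, 3.87 for C1qc, 2.81 for C3, 1.57 for C4b, 5.50 for C3ar1 and 2.11 for Serping1. In the other set, 1 library against 1, the values were 2.09, 2.14, 2.99, 3.51, 1.44, 5.84 and 2.31 in the same order. The direction was the same for every gene in both sets, and the lone libraries borrow their spread from the others.

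For A74 against light damage, the set with more anterior RNA (1 library against 2) had -2.49 for C1qa, -2.86 for C1qb, -3.10 for C1qc, -2.50 for C3, -2.36 for C4b, -4.30 for C3ar1 and -2.52 for Serping1. The set with less (2 libraries against 1) had -1.45, -1.57, -1.78, -3.38, -1.37, -2.61 and -2.21 in the same order. The values lay below 0 throughout. Against control, A74 had 0.32 and 0.64 for C1qa, 0.77 and 1.21 for C1qc, and 1.20 and 3.22 for C3ar1 in the sets with more and with less anterior RNA. C4b was at -0.78 in the first and at 0.07 in the second. Serping1 was at -0.42 and 0.10 and C3 at 0.32 and 0.13, against -0.13 for C3 with all libraries. The first set held 1 A74 and 2 control libraries and the second 2 and 1, so only effect sizes are given for this comparison.

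Beyond the 9 genes, 53 other genes of complement were listed by role, of which 26 passed the filter and 27 did not. After light damage 8 of the 26 were called higher and 3 lower, against 13% and 12.8% of all genes, with a median log2 fold change of 0.24 against 0.01. With A74, 9 were called lower than light damage, against 9.19% of all genes, with a median of -0.30 against 0.00. Against control 1 was called with A74, where 0.892% of all genes were called in either direction. The lists were chosen with earlier results of these data known.

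Of the genes of the classical proteases downstream of C1q, C1ra and C1s1 were called in the directions of C1q. C1ra was at 0.842 ± 0.367 CPM in control and at 5.02 ± 1.57 CPM after light damage (SD, n = 3), a log2 change of 2.55 (edgeR adjusted p = 0.00025), and had a log2 change of -2.65 with A74 against light damage (edgeR adjusted p = 0.000378). C1s1 was at 0.647 ± 0.228 and 2.58 ± 0.989 CPM in the same groups (SD, n = 3), a log2 change of 1.98 (edgeR adjusted p = 0.00102), and had -1.77 with A74 against light damage (edgeR adjusted p = 0.00323). With a term for Y-linked transcripts the latter was -1.03 (edgeR adjusted p = 0.157). Their paralogues were under the filter: C1rb had 10, 18 and 4 counts in control, light damage and A74, a ratio of 1.61 between light damage and control (95% counting interval 0.70 to 3.89), and C1s2 had 12, 10 and 7, a ratio of 0.74 (0.29 to 1.88). C2, the partner of C4 in the convertase, had 0.23 after light damage (SE 0.30, 95% interval -0.40 to 0.87) and -0.17 with A74 (-0.79 to 0.46), and was not called. Masp2, a protease of the lectin route, had -0.50 (edgeR adjusted p = 0.0735) and 0.42 (edgeR adjusted p = 0.155). The mannose-binding lectin genes Mbl1 and Mbl2 had 0 counts in every library. The lectin-route protease gene Masp1, under the filter, had 17, 45 and 24 counts in control, light damage and A74.

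In the alternative route, Cfd, the gene of factor D, which cuts factor B, had 0 counts in every library. Cfp, the gene of properdin, which stabilises the alternative convertase, had a log2 change of -0.36 after light damage (SE 0.12, edgeR adjusted p = 0.0372), and that call was lost in 7 of 17 alternatives, 6 of them with 1 library of control or light damage left out and the highest adjusted p at 0.114. Of 7 genes of the terminal pathway only C8g passed the filter, with -0.44 after light damage (edgeR adjusted p = 0.245). The other 6 had at most 4 counts in a library. Hc, which encodes C5, the source of C5a, had 2, 6 and 1 counts in control, light damage and A74.

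Of the receptors besides C3ar1 and C5ar1, the integrin subunits of complement receptors 3 and 4 rose after light damage and fell with A74. Itgam, the alpha chain of receptor 3, had log2 fold changes of 2.04 and -1.50 (edgeR adjusted p = 8.7e-05 and 0.00105), Itgax, that of receptor 4, 2.70 and -1.64 (0.00127 and 0.0176), and their shared beta chain Itgb2 2.44 and -1.66 (5e-05 and 0.000937). Itgax was not called in the second comparison without light damage replicate 3 (edgeR adjusted p = 0.0623) or without A74 replicate 3 (0.0874). In all it lost that call in 3 of 16 alternatives, with adjusted p up to 0.0970 over the edgeR and DESeq2 alternatives. Its libraries had 2 to 3 counts in control, 17 to 26 after light damage and 3 to 9 with A74. Itgax thus passed the count filter only through the group where it was high, so its calls are not independent of that filter. Cr1l, a complement regulator of mouse cells related to the human C3b receptor, had 0.40 and -0.44 (edgeR adjusted p = 0.0253 and 0.0232), calls that were lost in 3 and 6 of 17 alternatives. The first was lost without control replicate 3, light damage replicate 1 or light damage replicate 2 (edgeR adjusted p up to 0.106), and the second without replicates 1 or 2 of light damage or of A74 and with terms for tissue or Y-linked transcripts (up to 0.318). The C5a receptor paralogue C5ar2 had 4 counts after light damage and 0 in either other group. Vsig4, a C3b receptor of tissue macrophages, had 0 counts in every library.

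Among the regulators, Clu rose the most after Serping1. Clu encodes clusterin, an inhibitor of the terminal complex and an extracellular chaperone, and went from 470 ± 26.2 CPM in control to 1015 ± 204 CPM after light damage and 499.9 ± 43.1 CPM with A74 (SD, n = 3). The log2 fold changes were 1.11 (SE 0.13, edgeR adjusted p = 0.000177) after light damage and -1.02 (SE 0.13, edgeR adjusted p = 0.000588) with A74. The membrane inhibitor genes had log2 fold changes after light damage of 0.07 for Cd59a (95% interval -0.20 to 0.33), 0.06 for Cd46 (-0.42 to 0.53) and 0.33 for Cd55 (-0.60 to 1.26), and none was called. The intervals exclude a 2-fold change for Cd59a and Cd46 after light damage but not for Cd55.

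Cfi, the protease that inactivates C3b, had -0.92 with A74 against light damage (SE 0.28, edgeR adjusted p = 0.0293), a call lost in 7 of 17 alternatives, among them leaving out light damage replicates 1 or 2 or any A74 library (up to 0.0966). Vtn, which encodes vitronectin, an inhibitor of the terminal complex, had -0.29 after light damage (SE 0.09, edgeR adjusted p = 0.0189) and lost its call in 5 of 17, 4 of them without replicates 1 or 2 of control or light damage (up to 0.0902). For Csmd1, a membrane inhibitor of complement in neural tissue, the value was -0.32 (SE 0.11, edgeR adjusted p = 0.0469), lost in 9 of 17, 7 of them with a single library left out, namely each control library, light damage replicates 1 and 2 and A74 replicates 2 and 3 (up to 0.180). Csmd3 had -0.44 with A74 against light damage (SE 0.15, edgeR adjusted p = 0.0474), lost in 11 of 17, 7 of them with the same libraries left out in turn (up to 0.203). C1qbp, a mitochondrial protein that also binds C1q, rose by 0.40 after light damage (SE 0.08, edgeR adjusted p = 0.00121) and was the only listed gene called with A74 against control, at 0.36 (SE 0.08, edgeR adjusted p = 0.0381). That last call was lost in 5 of 17 alternatives, each of them without 1 library of control or A74, with the highest adjusted p at 0.190.

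**Figure D5:**
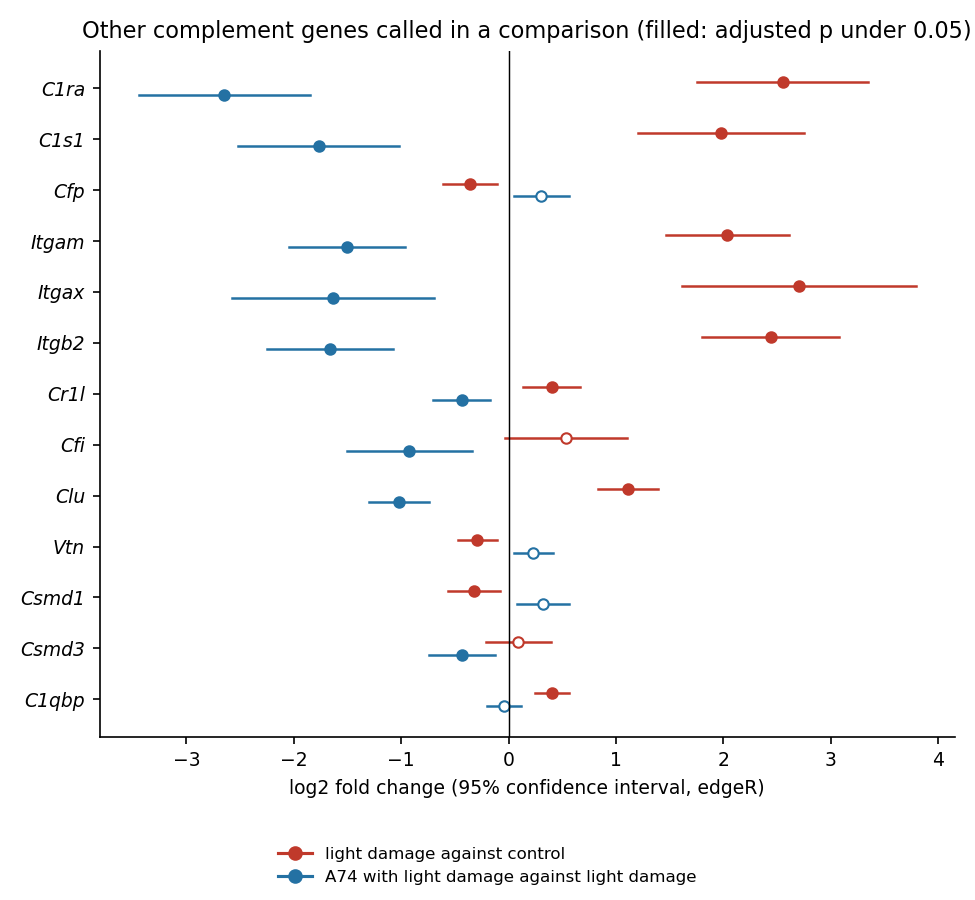
Log2 fold changes of listed complement genes other than the 9 that were called in at least 1 of 2 comparisons (horizontal axis, lines are 95% confidence intervals), with filled points for adjusted p under 0.05. C1ra, C1s1, Itgam, Itgax, Itgb2 and Clu lie to the right of 0 after light damage, from 1.11 to 2.70, and to the left with A74 against light damage, from -1.02 to -2.65, while the other 7 lie between -0.92 and 0.54.

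Genes with the most similar pattern were found by the root mean square difference in log2 CPM, centred on each gene's mean, over the 9 libraries and among 13611 genes. For C1qa they were Cebpd, a transcription factor of inflammation (0.173), Crym (0.180) and the microglial receptor gene Trem2 (0.185), where the median over all candidates was 1.13. For C4b they included Samd9l, an interferon-induced gene (0.152), and the protease inhibitor gene A2m (0.190), with a median of 0.930. The nearest genes of Serping1 were the adaptor gene Blnk (0.313), the lysosomal transporter gene Slc15a3 (0.349) and Gpnmb (0.350). The nearest genes of C3, namely Rac2, Gpnmb and Slfn9, lay further off at 0.509, 0.511 and 0.512, with a median of 1.55. All of these values share the same libraries and describe likeness only.

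Some markers of other immune cells moved beside the complement genes, while others did not. Of 9 monocyte and macrophage markers the sum was 1.89 to 5.43 CPM in control, 46.2 to 60.6 CPM after light damage and 2.30 to 8.79 CPM with A74, mostly Lyz2, a lysozyme gene that activated microglia also express. Lyz2 and Mrc1 were the 2 of those 9 genes that passed the filter, Lyz2 was called higher after light damage and both were called lower with A74. Mrc1 had 0 to 12 counts a library in control, 3 to 40 after light damage and 0 to 2 with A74. It passed only with the help of light damage libraries, so its call is not independent of the filter. Of the 7 under the filter, F13a1 had 9, 65 and 3 counts in control, light damage and A74, and Ms4a7 had 3, 56 and 3. Ccr2, which defines blood monocytes, had 0, 7 and 1, and Ly6c2 had 5, 4 and 7. Of 8 neutrophil markers only Csf3r passed the filter, and it was called higher after light damage (log2 fold change 2.08, edgeR adjusted p = 0.00026) and lower with A74 against light damage (-1.08, edgeR adjusted p = 0.016). Ly6g had 0 counts throughout and S100a8 at most 1 in a library. Camp had 12, 1 and 11 counts in control, light damage and A74, and Mmp8 had 0, 9 and 0. The T cell gene Cd3e had 0 counts in every library. Cd4, another T cell marker, had 20, 11 and 16 counts in the 3 groups, and Lck had 37, 83 and 45 and was not called. Müller glia and astrocyte markers, cells that can make C3 and C4, were called higher in 9 of 10 cases after light damage and lower in 9 of 10 with A74. Over all genes, 13% and 9.19% were called in these directions. Pigment epithelium markers summed to 22.9 to 136 CPM in control, 65.1 to 87.9 CPM after light damage and 26.9 to 48.1 CPM with A74, and the fibroblast and stroma list to 23.5 to 27.3, 22.6 to 39.2 and 18.5 to 28.5 CPM. Their part in the levels of the complement genes was not tested.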

How the data were processed

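RNA of Balb/c mouse retinas was measured in 9 libraries, grouped by the sample titles. The deposited table gives whole-number read counts per gene, not normalised, with Ensembl identifiers and symbols. Per the submitters' processing notes, the upstream tools were Bowtie2, RSEM 1.3.1 and DESeq2 1.4.5 with build GRCm39, and their roles are not spelled out. Annotation release and strand use: not given in the sources used here, so reads of overlapping genes cannot be told apart. The table holds no coordinates, and promoter sequences are RefSeq's (GRCm38.p6).

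Genes kept by filterByExpr (minimum count 10) were TMM-scaled and tested by edgeR 4.0.16 under R 4.3.3 (robust quasi-likelihood, all 9 libraries in 1 fit, no covariates, Benjamini-Hochberg over 17272 genes), which was checked on simulated counts. An SE is the log2 fold change over the square root of F. Log2 CPM used a prior count of 2. Exact permutation tests used SciPy 1.17.1. Alternatives were DESeq2's size factors, no filter, DESeq2 1.42.0, a replicate block, a fit of only the groups compared, terms for tissue set and Y-linked transcripts, and leaving out libraries. The text names the 9 genes, other listed complement genes that were called or failed the filter, and the 3 genes most like C1qa, C3, C4b and Serping1. Some values of that choice are not reported here. Members and lists were chosen with earlier results of these data known. No replicate pair held identical values, and chi-square per degree of freedom between replicates was 2.52 to 15.7, above sampling noise.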

Additional observations from a re-analysis of the deposited data

Results flagged for a closer look

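The difference between A74 and light damage was not the same in the libraries with more and with less RNA of anterior eye tissue for 3 of the 7 complement genes tested. The difference in log2 fold change, the set with more anterior RNA minus the other, was -1.04 for C1qa (SE 0.24, edgeR adjusted p = 0.0309), which went from -2.49 in that set to -1.45 in the other. For C1qb the difference was -1.295 (SE 0.32, edgeR adjusted p = 0.0443) and for C4b -0.99 (SE 0.23, edgeR adjusted p = 0.0356). The same test called 196 of 17272 genes. It sets 1 A74 library against 2 light damage libraries in the set with more anterior RNA and 2 against 1 in the other, whose lone light damage library, replicate 3, was the lowest of its group for all 7 genes. In light damage against control, the corresponding differences were not called (C1qa 0.73, edgeR adjusted p = 0.211, C1qb 1.17, edgeR adjusted p = 0.111, C4b 0.13, edgeR adjusted p = 0.885).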

How the results depend on the processing

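Of 119 refits of the 7 tested genes, 17 for each, light damage against control was called in 116, with C4b the exception in 3, and A74 against light damage in 119. A74 against control was called in 18 of 119, for C3ar1, C1qc, C1qa and C1qb. In that comparison the counts of called genes over all genes, over the 9 genes and over all 62 listed complement genes were 154, 0 and 1, and became 718, 4 and 5 with no count filter, 322, 2 and 3 with DESeq2, 558, 2 and 3 with the groups compared alone, 96, 1 and 2 with a term for Y-linked transcripts, and 934, 4 and 6 without light damage replicate 3 and A74 replicate 1 together. The Y-linked term also took A74 against light damage from 3153 to 745 called genes. The causes were not tested. Directions reversed, all uncalled, in A74 against control: C3 was 0.11 with a tissue term, 0.32 with the Y-linked term, and 0.16, 0.0098 and 0.17 without control replicate 2, A74 replicate 2 and A74 replicate 3, over a range of -0.71 to 0.17 with 1 library left out, while with the Y-linked term C4b was 0.11 and Serping1 0.26.

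Leaving out 1 library at a time gave 2818 (without light damage replicate 2) to 5467 called genes for light damage against control. For A74 against light damage it gave 1717 to 4514, with 1717, 1731, 1777 and 1815 without light damage replicates 1 and 2 and A74 replicates 3 and 2. For A74 against control it gave 21 to 416, with 21 and 36 without A74 replicates 2 and 3, 28 and 35 without control replicates 1 and 2, and 306, 312 and 416 without A74 replicate 1 and light damage replicates 1 and 3. Of the 9 genes 6 to 8, 7 to 8 and 0 to 3 were called, counting C5ar1 or Cfb where they passed the filter of the smaller fit, and of all listed complement genes 13 to 19, 13 to 19 and 0 to 4. The log2 difference in C1q per microglia marker level lay at 1.50 to 1.69, -1.14 to -0.97 and 0.45 to 0.65, and that in the C1qc share of C1q counts kept its sign throughout.

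Same-number correlations of deviations were 0.116 to 0.311 between control and light damage, all 3 above 0.1, but 1 of 3 between control and A74 and 2 of 3 between light damage and A74 exceeded 0.1, and the lowest was -0.09. The numbers are the replicate numbers of the sample titles. Library names in the light damage and A74 groups carry other numbers, so matching by library name would pair other libraries. The labels do not say what a number shares, so pairing is not settled. With the replicate number as a block, 4588, 3362 and 136 genes were called in the 3 comparisons, against 4452, 3153 and 154, and 7, 7 and 0 of the 9 genes. Depth limits Cfb and C5ar1, with at most 9 and 15 counts in a library.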
